A study of Mus musculus with 4 samples.

Results

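The nephrotoxicity array carried 4 enzymes of amino acid and creatine metabolism, namely Gamt, Glul, Bhmt and Aass. These were picked by symbol out of the 84 genes of the array, with earlier results of these data known. They were measured by RT-PCR in MCT cells, an epithelial line from mouse kidney labelled as convoluted tubule. The 4 conditions had 1 sample each and comprised untreated cells (labelled control), cyclosporine A (CsA) at 10 μg/ml, 11R-VIVIT (labelled 11R), a cell-permeable NFAT inhibitor, at 1 μM and SB203580, which inhibits p38 MAPK, at 10 μM. All were grown in DMEM with serum, and the general methods of the study give 24 h for treatments of this kind. The study asked whether CsA acts on kidney epithelial cells through NFAT or through kinases such as p38 MAPK. With 1 sample per condition the spread between replicates is unknown, and the conditions could not be tested against each other.

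Creatine is made in a pair of steps. Gatm, the amidinotransferase, forms guanidinoacetate from arginine and glycine, a step for which the kidney is a main site, and Gamt methylates guanidinoacetate to creatine with S-adenosylmethionine as the donor. Bhmt transfers a methyl group from betaine to homocysteine and so regenerates methionine, from which S-adenosylmethionine is made. Glul is glutamine synthetase, which joins glutamate and ammonia, and Aass catalyses the opening steps of lysine breakdown by way of saccharopine.

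Each value is a Ct, the number of PCR cycles a gene needs to cross the detection threshold, so that a lower Ct means more template. All 4 enzymes amplified late, with a Ct between 29.0 and 34.5, where few template molecules are present and precision is lower. Genes at or past cycle 35 were taken as not detected, which applied to none of the 4 enzymes in any sample. Levels are given as cycles after Actb (beta-actin) in the same sample. The log2 change against untreated cells is the difference of these values and assumes that each cycle doubles the product. Raised and lowered mean a change of 2-fold or more. In these bulk samples, fewer cells that express a gene and less RNA of it per cell cannot be told apart, and Ct values of different genes are not compared as amounts, since each primer pair amplifies on its own scale.

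The promoters of Gamt and Glul are shown because these are the enzymes with the largest changes. Both runs are the 250 bases before the annotated start of the gene, from RefSeq on GRCm38.p6, written 5′ to 3′ on the strand of the gene. Capitals mark GGGCGG, the GC box bound by Sp1, and CCAAT, the CCAAT box, searched on both strands. The Gamt run lies at chr10:80261013-80261262 on the minus strand, and its last bases are also annotated as transcribed from a start further out. The Glul run lies at chr1:153899679-153899928 on the plus strand.
Gamt: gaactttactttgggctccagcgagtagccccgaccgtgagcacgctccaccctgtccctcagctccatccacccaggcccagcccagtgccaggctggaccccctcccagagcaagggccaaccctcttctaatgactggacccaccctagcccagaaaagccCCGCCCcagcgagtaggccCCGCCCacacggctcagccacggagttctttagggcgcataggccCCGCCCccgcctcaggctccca
Glul: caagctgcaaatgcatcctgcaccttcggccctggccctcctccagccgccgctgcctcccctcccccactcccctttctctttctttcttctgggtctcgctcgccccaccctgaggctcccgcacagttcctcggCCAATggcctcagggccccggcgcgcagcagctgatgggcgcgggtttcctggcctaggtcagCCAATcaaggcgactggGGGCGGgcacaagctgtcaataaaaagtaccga

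The Gamt run held GGGCGG in 3 places, beginning at positions -86, -67 and -22 from the start of the gene, and held CCAAT in 0. The Glul run held CCAAT in 2 places, at -113 and -50, and GGGCGG in 1, at -33. Among the 32851 promoter runs of the same length in the table, 32.7% held GGGCGG at least once and 33.8% held CCAAT. The core letters of NFAT sites, GGAAA, were in the Glul run once, at -68, and in 55.6% of all runs, while the Gamt run held it in 0 places. None of these matches overlapped. The runs of Bhmt and Aass held GGGCGG in 0 places and CCAAT in 1 and 2. These are matches of letters and no site was measured here.

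Gamt was higher with both CsA and SB203580 and close to the untreated level with 11R-VIVIT. Its Ct was 32.1 in untreated cells, 29.9 with CsA, 31.9 with 11R-VIVIT and 29.0 with SB203580. Relative to Actb it appeared 14.0 cycles later in untreated cells, 12.0 with CsA, 13.8 with 11R-VIVIT and 11.2 with SB203580. The order of the levels was therefore SB203580, CsA, 11R-VIVIT and untreated cells. Against untreated cells the rise of Gamt was 4.02-fold with CsA and, at 7.15-fold, larger with SB203580 (log2 changes 2.01 and 2.84), whereas 11R-VIVIT gave a log2 change of 0.22. When bounds are ranked as values, no other gene among the 79 with a value had a larger change with SB203580 in either direction. In the same ranking with CsA, Gamt was in place 6 from the top among 80. Both ranks take genes not detected in untreated cells at their bound, so the real rise of those genes may be larger. The Ct values of Gamt with CsA and SB203580 were the earliest of the 4 enzymes in any sample.

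Glul was lower with CsA and near the untreated level in the other samples. Its Ct was 32.2 in untreated cells, 34.5 with CsA, 32.2 with 11R-VIVIT and 32.2 with SB203580. The level lay 14.1 cycles after Actb in untreated cells, 16.6 with CsA, 14.1 with 11R-VIVIT and 14.4 with SB203580. The CsA sample alone stood apart from the other 3. Glul fell 5.94-fold with CsA (log2 change -2.57), the lowest change among the 80 genes with a value. This rank takes genes not detected with CsA at their bound, so their real fall may be larger. Its log2 change was -0.03 with 11R-VIVIT and -0.30 with SB203580. The Ct with CsA was also the closest of any enzyme value to the limit of 35, so the size of the fall rests on a well with few templates.

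**Figure D1:**
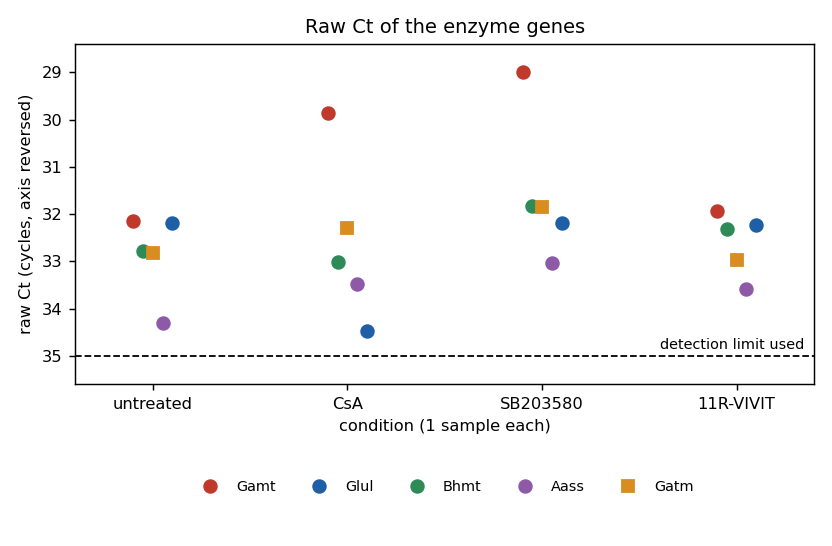
Raw Ct of Gamt, Glul, Bhmt, Aass and Gatm (1 point per gene and condition, y axis in cycles and reversed so that higher points mean more template, dashed line at the detection limit of 35). Gamt rises from 32.1 to 29.9 and 29.0 with CsA and SB203580, and Glul drops to 34.5 with CsA.

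Bhmt differed in direction between CsA and the other treatments, with changes under 2-fold against untreated cells. Its Ct was 32.8 in untreated cells, 33.0 with CsA, 32.3 with 11R-VIVIT and 31.8 with SB203580. It appeared 14.7 cycles after Actb in untreated cells, 15.2 with CsA, 14.2 with 11R-VIVIT and 14.0 with SB203580. The log2 change was -0.49 with CsA, 0.48 with 11R-VIVIT and 0.66 with SB203580. CsA thus gave the lowest level and SB203580 the highest, and these ends of the order were 2.22-fold apart.

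Relative to Actb, Aass was above untreated cells in all 3 treated samples, though its CsA value was -0.013 against the median of the genes that crossed before cycle 25, and no change reached 2-fold. Its Ct was 34.3 in untreated cells, 33.5 with CsA, 33.6 with 11R-VIVIT and 33.0 with SB203580, the latest untreated value of the 4 enzymes. The level was 16.2 cycles after Actb in untreated cells, 15.6 with CsA, 15.5 with 11R-VIVIT and 15.2 with SB203580. The log2 change was 0.55 with CsA, 0.72 with 11R-VIVIT and 0.95 with SB203580. A shared sample enters all 3 changes, so a single high Ct in untreated cells would move them together, which was not tested.

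Of the 4 enzymes, CsA raised 1 (Gamt) and lowered 1 (Glul). Across the array, CsA raised 20.0% of 80 genes with a value and lowered 16.2%. SB203580 raised 1 of the 4 enzymes (Gamt) and lowered 0, beside 15.2% raised and 8.86% lowered among 79 genes. With 11R-VIVIT 0 of the 4 were raised or lowered, and the shares over 76 genes were 5.26% and 3.95%. The median log2 change of the 4 enzymes was 0.03 with CsA, where the enzymes moved in opposite directions, against 0.15 over the array. It was 0.80 with SB203580 against 0.27, and 0.35 with 11R-VIVIT against -0.02.

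**Figure D2:**
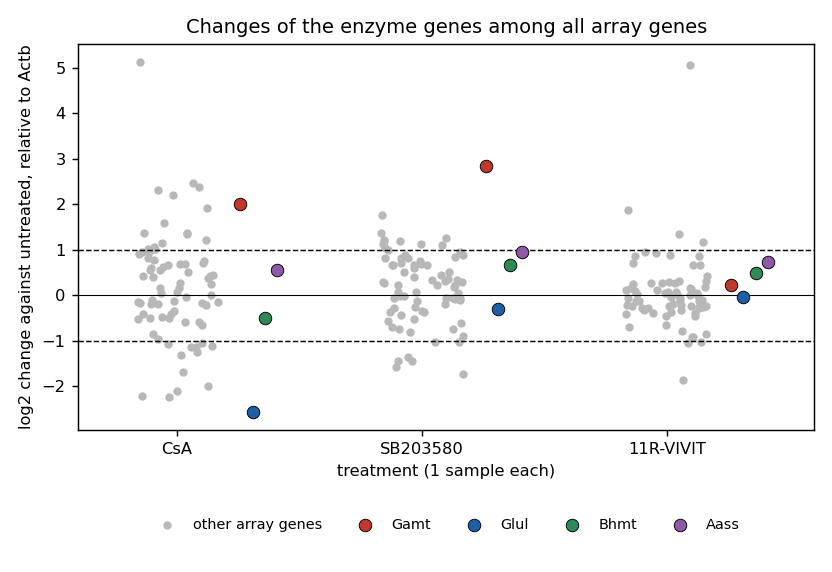
Log2 change against untreated cells, relative to Actb, of each array gene with a value in each treatment (grey points, including genes whose change is a bound; dashed lines at 2-fold). The coloured points of Gamt lie at 2.01 and 2.84 with CsA and SB203580, Glul is the lowest point with CsA at -2.57, and all 4 enzymes lie within 2-fold with 11R-VIVIT.

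The late position of the enzymes was set beside that of the 27 other array genes with an untreated Ct from 30 up to 35. The untreated Ct that chose these genes also enters each change against untreated cells, and the part of this choice was not tested. With SB203580, 22 of these late genes were above untreated cells, beside 47 of 79 array genes. The median log2 change of the late genes was 0.66, so Bhmt (0.66) and Aass (0.95) lay at or somewhat above this median. Gamt was far above it. With CsA the late genes were divided, 14 above and 13 below, with a median of 0.15 and a median absolute change of 0.67, which Bhmt and Aass did not exceed and which Gamt and Glul did. With 11R-VIVIT their median absolute change was 0.34, and Bhmt (0.48) and Aass (0.72) were above it. The part of late amplification in the changes of Bhmt and Aass was not tested.

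Actb was itself at a Ct of 18.1 in untreated cells, 17.8 with CsA, 18.1 with 11R-VIVIT and 17.8 with SB203580. The choice of reference mattered most with CsA. Taking the median Ct of those 69 genes that were detected throughout as the reference shifted every CsA change by -0.50 on the log2 scale, and taking the median of the 20 genes that crossed before cycle 25 in every sample shifted it by -0.57. Over Actb, these references and no reference, the CsA change of Gamt ran from 1.44 to 2.28 and that of Glul from -3.14 to -2.30. The SB203580 change of Gamt ran from 2.67 to 3.14. The CsA change of Aass went from 0.83 without a reference to -0.013 with the early genes, so its direction was not settled. That of Bhmt was below 0 with each reference, from -0.22 to -1.06. Against the array median, CsA raised 8 array genes and lowered 20, in place of 16 and 13. With the early genes it raised 8 and lowered 23, and without a reference SB203580 raised 22 and lowered 5, in place of 12 and 7.

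**Figure D3:**
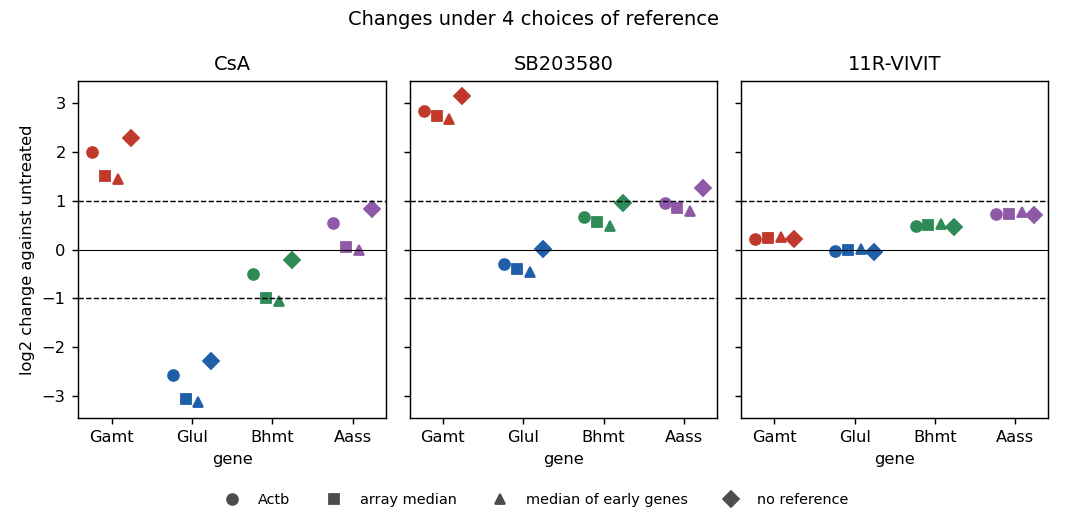
Log2 change of each enzyme in each treatment with Actb, the array median, the median of early genes or no gene as the reference (symbols, 1 sample per condition, dashed lines at 2-fold). Gamt with CsA and SB203580 and Glul with CsA stay beyond 2-fold with all 4 choices, whereas Aass with CsA moves between 0.83 and -0.013.

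A comparison of genes within a sample needs no reference. Gamt and Glul had nearly the same Ct in untreated cells, with Gamt 0.0381 cycles earlier. It was 4.62 cycles earlier with CsA, 0.29 with 11R-VIVIT and 3.18 with SB203580. The ratio of Gamt to Glul was therefore 23.9 times that of untreated cells with CsA, 1.19 times with 11R-VIVIT and 8.83 times with SB203580. The ratio shows that these genes changed unequally and by itself does not say which of them moved.

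Of 59 further genes of amino acid, creatine, methionine, polyamine and glutathione metabolism that were listed, the array carried 3, namely Gatm, Oat and Odc1, and none of these was raised or lowered at least 2-fold by a treatment. Gatm, which precedes Gamt in creatine synthesis, had a Ct of 32.8 in untreated cells, 32.3 with CsA, 33.0 with 11R-VIVIT and 31.8 with SB203580. Its log2 change was 0.27 with CsA, -0.13 with 11R-VIVIT and 0.68 with SB203580. The sign of the Gatm change with CsA depended on the reference, with -0.23 against the array median. In the same samples the ratio of Gamt to Gatm was 3.34 times that of untreated cells with CsA, 1.28 times with 11R-VIVIT and 4.47 times with SB203580. The ratios of Gamt to Glul and to Gatm were added after the data were seen. With an amplification base of 1.9, Gamt changed by 4.24 relative to Glul and by 1.61 relative to Gatm with CsA on the log2 scale. The creatine genes thus did not move by equal amounts in the CsA and SB203580 samples.

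**Figure D4:**
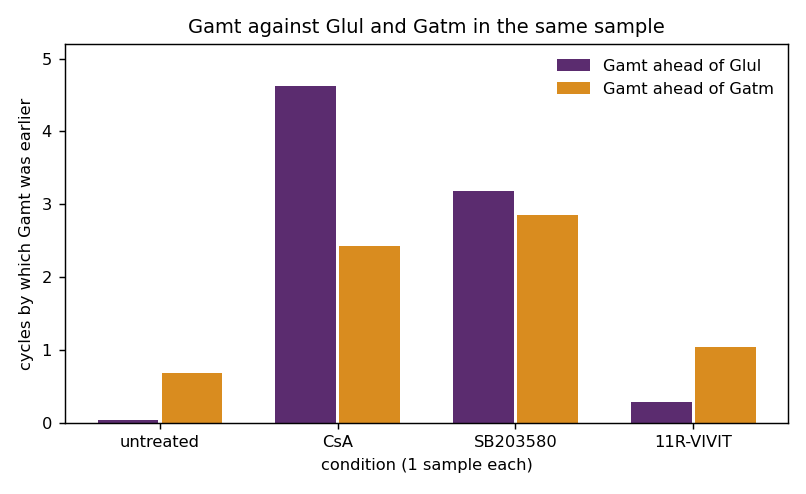
Cycles by which Gamt crossed the threshold before Glul and before Gatm in the same sample (bars from 0, 1 sample per condition, no reference gene). Gamt is 0.0381 cycles ahead of Glul in untreated cells and 4.62 ahead with CsA, and its lead over Gatm grows from 0.69 to 2.43 with CsA and 2.85 with SB203580.

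Oat, the ornithine aminotransferase of mitochondria, and Odc1, the ornithine decarboxylase that opens polyamine synthesis, both amplified early. The Ct of Oat was 24.5 in untreated cells, 24.7 with CsA, 24.9 with 11R-VIVIT and 24.9 with SB203580, with log2 changes of -0.50, -0.74 and -0.41 in the order CsA, SB203580 and 11R-VIVIT. That of Odc1 was 21.3, 21.1, 21.7 and 21.8 in the order untreated, CsA, SB203580 and 11R-VIVIT, with log2 changes of -0.11, -0.73 and -0.45. Both were lower relative to Actb in each treated sample, by less than 2-fold. Without a reference Odc1 was above untreated cells with CsA (0.16), and against the early genes Oat passed 2-fold with CsA (-1.06).

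The treated samples were also compared with each other, which leaves out the untreated sample. Relative to 11R-VIVIT, CsA gave 3.45-fold more Gamt (log2 difference 1.79) and 5.81-fold less Glul (-2.54), while Bhmt (-0.98) and Aass (-0.17) were under 2-fold. Thus 2 of the 4 enzymes differed at least 2-fold, beside 38.0% of 79 array genes in either direction. Relative to 11R-VIVIT, SB203580 gave 6.13-fold more Gamt (2.62), the highest of 80 genes when bounds are ranked as values. Glul (-0.27), Bhmt (0.17) and Aass (0.22) were close to the 11R-VIVIT level, so 1 of the 4 differed beside 21.2% of the array.

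Of the 4 enzymes, Glul differed most between CsA and SB203580 and was 4.81-fold lower with CsA (log2 difference -2.27), and Bhmt was 2.22-fold lower (-1.15). Gamt (-0.83) and Aass (-0.39) were lower with CsA by less than 2-fold, and Gamt passed 2-fold (-1.24) against the array median. All 4 enzymes were thus lower with CsA than with SB203580, with 2 of them past 2-fold. Of 81 array genes, 40 were lower with CsA by any amount and 15 by at least 2-fold, and 30.9% differed at least 2-fold in either direction. The median difference of the 27 other late genes was -0.50, with 19 of them lower with CsA and 10 lower by at least 2-fold.

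For each enzyme, the array genes with the most similar profile over the 4 samples were found by the root mean square (RMS) difference of log2 levels after each gene's own mean was subtracted, among the 68 other genes detected in all samples. This measure does not depend on the reference. Glul was nearest to Havcr1, which encodes the tubular injury marker KIM-1 (RMS difference 0.33), to Gpx8 (0.44), a peroxidase of the endoplasmic reticulum, and to Gstk1 (0.47), a glutathione transferase, where the median over all genes was 1.18. All 3 fell with CsA, with log2 changes of -2.10, -1.70 and -1.99. Havcr1 was above untreated cells with SB203580 (0.59) and 11R-VIVIT (0.67), unlike Glul.

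The neighbours of Gamt were farther from it, namely Aldh1a1 (0.67), a retinaldehyde dehydrogenase, Gadd45a (0.68), a growth arrest gene, and Spp1 (0.73), which encodes osteopontin, against a median of 1.21. Their log2 changes with SB203580, at 0.95, 1.20 and 1.11, were well below the 2.84 of Gamt. Aldh1a1 was below untreated cells with 11R-VIVIT (-0.93), unlike Gamt. Among the array genes most like Aass were Nox4 (0.25), an NADPH oxidase, and the chemokine gene Ccl3 (0.29), where the median was 0.60. Nox4 had log2 changes of 0.63 with CsA, 0.29 with 11R-VIVIT and 1.20 with SB203580, and Ccl3 was below untreated cells with CsA (-0.19), unlike Aass. Bhmt was nearest to Ccl3 (0.16), the heme oxygenase gene Hmox2 (0.20) and the efflux transporter gene Abcc2 (0.21), with a median of 0.69. The untreated Ct of these neighbours was 33.4, 27.9 and 33.0, so Ccl3 and Abcc2 amplified late too. Their log2 changes with CsA, in the order Ccl3, Hmox2 and Abcc2, were -0.19, -0.60 and -1.07. Among the enzymes, Bhmt and Aass were the most alike (0.39) and Gamt and Glul the least (1.94).

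**Figure D5:**
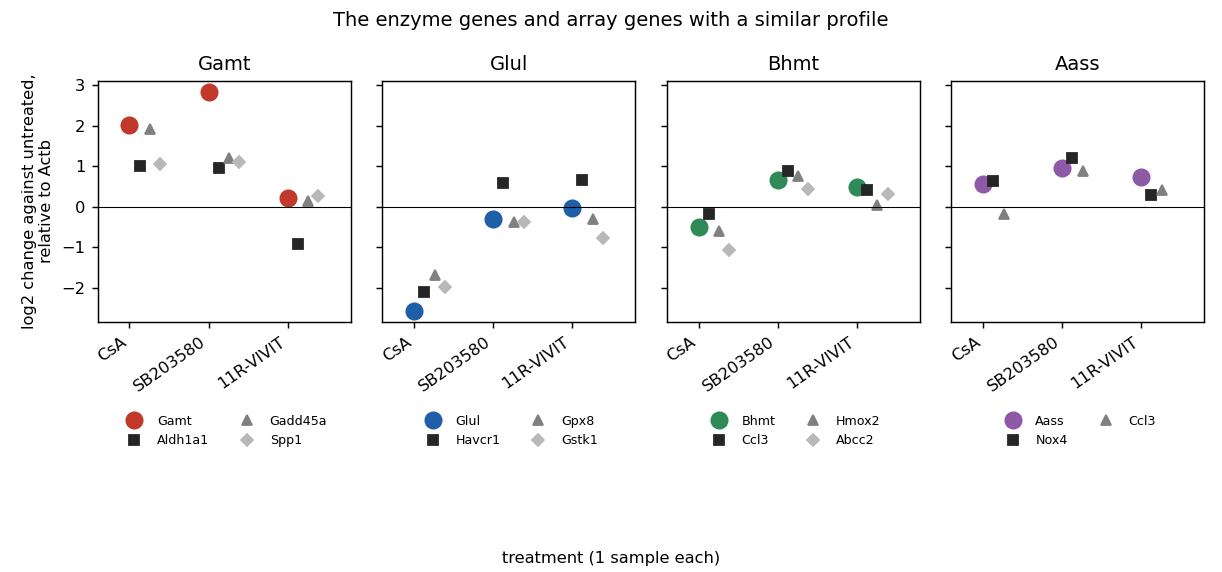
Log2 change against untreated cells, relative to Actb, of each enzyme (large circle) and of array genes among the nearest to it in profile (small symbols), with 1 sample per treatment. The neighbours of Glul share its low value with CsA and those of Gamt stay below its 2.84 with SB203580.

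Of 26 markers listed for kidney and other cell types, the array carried 5. The proximal tubule transporter Slc22a6 had an untreated Ct of 33.0, Havcr1 31.0 and Egf, a gene of the distal tubule, 28.9. Calb1, a further distal gene, was past the limit at 36.1, as it was with CsA and 11R-VIVIT, and Vim, which mesenchymal and cultured cells express, was at 23.2. With CsA, where Glul fell, Slc22a6 (log2 change -1.32), Havcr1 (-2.10) and Egf (-1.15) were lower and Vim was higher (2.47). With SB203580, where Gamt was highest, the distal genes differed, as Egf was lower (-1.45) and Calb1 was detected, at a Ct of 34.4 and a log2 change of at least 0.33. Slc22a6 (0.66) and Havcr1 (0.59) were higher by less than 2-fold, and Vim was at 0.82. With 11R-VIVIT the values of Slc22a6, Havcr1, Egf and Vim ran from -0.11 to 0.67. The part of these shifts in the changes of the enzymes was not tested.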

How the data were processed

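Total RNA of MCT cells (1 sample per condition) was extracted with TRIzol, reverse transcribed, and measured with SYBR green on the RT2 Profiler mouse nephrotoxicity array. The authors deposited a table of raw Ct values, 1 for each of 84 genes and Actb in each sample, with no normalization. The instrument and threshold are not given in the sources used here. Their table of fold changes, relative to a housekeeping gene and to the untreated sample, was not used. The methods name the provided housekeeping genes as reference, and the Ct table used here holds Actb.

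The log2 change was calculated from Ct relative to Actb, with an amplification base of 2 and a Ct limit of 35, at which later values were set (both samples at the limit give no change, 1 a bound). No test was made. Calculations were tested on simulated Ct values. The genes named are the 4 enzymes, the listed metabolic genes on the array, Actb, the markers and the 3 nearest profiles of each enzyme, of which a result for 1 gene is not reported here. Members and lists were chosen with earlier results of these data known. Alternatives were the array median, early genes or no gene as reference, a Ct limit of 32 or none, a base of 1.9, and thresholds of 1.5-fold and 3-fold. All 8 symbols of the enzymes, list genes and Actb matched the mouse annotation GRCm38.p6, whose promoter table gave the sequences. Python 3.11.15, numpy 2.4.6 and matplotlib 3.10.9 were used. No columns of other samples were present.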

Additional observations from a re-analysis of the deposited data

How the results depend on the processing

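With 1 well per gene and sample, the error of a well or culture is unknown, and late cycles limit precision. No paired analysis was possible because each condition has 1 sample. With other references 60 of 72 enzyme values stayed on the same side of 0 and of 2-fold; having no Ct limit cannot change any. The cause of other shifts was not tested.

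With the early genes as reference, the log2 change of Bhmt with CsA was -1.06, that of Aass with CsA -0.013 and that of Glul with 11R-VIVIT 0.013. Bhmt with CsA was then -1.59 and with SB203580 -0.035 relative to 11R-VIVIT, and Gamt with CsA was -1.23 relative to SB203580. Relative to the array median, Bhmt with CsA was -1.49 against 11R-VIVIT and Gamt with CsA -1.24 against SB203580. Without a reference, Glul with SB203580 was 0.0027, Aass with SB203580 1.25, Aass with CsA against 11R-VIVIT 0.12 and Glul with SB203580 against 11R-VIVIT 0.045.

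A Ct limit of 32 leaves 15 enzyme values, with all of Glul and Aass, undefined. Bhmt with SB203580 was at least -0.13 against untreated cells and -0.14 against 11R-VIVIT, which give no direction. For CsA against SB203580 it was at most -0.15.

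The number of enzymes lowered by CsA was 2 with the early genes and 0 with the limit of 32, in place of 1. SB203580 raised 2 enzymes without a reference and 3 at 1.5-fold, in place of 1, and 11R-VIVIT raised 1 at 1.5-fold in place of 0. Of the 3 further metabolic genes, CsA lowered 1 with the early genes, and SB203580 raised 1 and lowered 2 at 1.5-fold, in place of 0. Relative to 11R-VIVIT, CsA lowered 2 enzymes with the array median, the early genes or 1.5-fold and 0 with the limit of 32, in place of 1. Relative to SB203580 it lowered 3 with the same 3 settings, 0 with the limit of 32 and 1 at 3-fold, in place of 2.

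Over the array, CsA raised 28 genes at 1.5-fold and 8 at 3-fold, in place of 16, and lowered 7 without a reference, 8 with the limit of 32 and 6 at 3-fold, in place of 13. SB203580 raised 7 with the early genes, 29 at 1.5-fold and 2 at 3-fold, in place of 12, and lowered 13 and 1, in place of 7. With 11R-VIVIT, 1 was raised with the limit of 32, 13 at 1.5-fold and 2 at 3-fold, in place of 4, and 1 was lowered with a base of 1.9, 9 at 1.5-fold and 1 at 3-fold, in place of 3. At 1.5-fold and 3-fold, CsA and 11R-VIVIT differed in 48 and 18 genes (30 at 2-fold), SB203580 and 11R-VIVIT in 34 and 5 (11 with a base of 1.9, 17 at 2-fold), and CsA and SB203580 in 47 and 11 (15 with the limit of 32, 25 at 2-fold).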
